A study of Mus musculus with 12 samples.

Results

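The choroid plexus genes followed here are Ttr, Enpp2, Folr1, Prlr, Kl, Aqp1, Kcnj13, Slc4a5, Clic6 and Otx2, 10 of the 53465 genes in the count table. They were chosen by gene symbol as markers of the choroid plexus epithelium, by a rule that uses no measured value. The list was nonetheless drawn up with earlier results of these data known, so its values are a description. All 10 had enough reads to be tested, as did 17796 genes in all. RNA came from mouse striatum, labelled as striatal cells on the background C57/BL6, in 4 genotypes with 3 libraries each. WT carried neither change, Q175HD was the Q175 neo-deleted knockin with an expanded CAG repeat in the endogenous huntingtin gene Htt, SUMO-KO lacked SUMO-1, a small protein that is attached to other proteins, and Q175HD/SUMO-KO carried both changes. The age of the mice was not given. The labels do not say whether each library is a different mouse, and the p-values therefore speak only of the scatter among these 12 libraries. In tissue RNA, fewer cells of a type and less RNA per cell cannot be told apart.

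The choroid plexus is a folded sheet of epithelium that hangs into the brain ventricles, covers a core of leaky capillaries and secretes cerebrospinal fluid. Its cells move water and ions from blood to ventricle, carry folate and hormones across, and load the fluid with secreted proteins, among them much transthyretin. The striatum borders the lateral ventricle, in which a choroid plexus lies, but its own neurons and glia are not choroid plexus cells.

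The libraries held between 9379594 and 17226419 reads assigned to genes. Htt ran from 249.1 to 302.2 CPM (reads of a gene scaled to the size of its library) without the knock-in and from 159 to 218 CPM with it. The 10 markers of striatal projection neurons summed to between 2146 and 7207 CPM. The 10 markers of cortical excitatory neurons summed to 976 CPM in WT 1 and 646.5 CPM in WT 2, both high in Ttr, and to between 197 and 383 CPM in the other libraries. Xist, expressed from the inactive X chromosome, was counted at 18092, 19854 and 18386 reads in WT 2, SUMO-KO 2 and Q175HD/SUMO-KO 2 and at no more than 51 elsewhere, so that no Q175HD library was of that kind. The summed level of 12 fibroblast markers was 163 CPM in Q175HD/SUMO-KO 1 and between 35.1 and 63.8 CPM in the other libraries.

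Among the secreted proteins, Ttr encodes transthyretin, which carries thyroxine and retinol in the fluid. It was the most abundant of the 10 per length, with a median over the libraries of 2701 TPM, the authors' level scaled to transcript length and library size. Enpp2, on chr15:54838901-54952892 of GRCm38, encodes autotaxin, a secreted enzyme that makes lysophosphatidic acid and that myelinating oligodendrocytes also produce. Its median was 418 TPM. Of the receptors, Folr1 (chr7:101858331-101870788) encodes the alpha folate receptor, Prlr (chr15:10177238-10349180) the prolactin receptor, and Kl (chr5:150952607-150993817) klotho, a co-receptor for endocrine fibroblast growth factors. Their median levels were 10.8, 2.28 and 14.4 TPM.

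The transport proteins of the set are the water channel Aqp1 (chr6:55336432-55348555), the inwardly rectifying potassium channel Kcnj13 (chr1:87386363-87394729), the sodium bicarbonate cotransporter Slc4a5 (chr6:83219828-83304945) and Clic6 (chr16:92485736-92541243) of the chloride intracellular channel family. Their median levels were 8.33, 17.3, 4.11 and 26.7 TPM. Otx2 (chr14:48657677-48673819), a homeodomain transcription factor needed to form the choroid plexus, had a median of 4.16 TPM. Kcnj13 lies inside Gigyf2, which runs on the opposite strand and had 1428 reads per library on average, and Folr1, Enpp2 and Otx2 also overlap genes on the other strand. The strand counted is not given in the sources used here, so reads of such pairs cannot be told apart. In its lowest library, Q175HD/SUMO-KO 2, Kcnj13 was counted at 5 reads in all, which bounds any Gigyf2 reads among them there.

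Upstream sequence is shown for the members on which the later results turn. RefSeq windows on GRCm38.p6 were at hand for Kcnj13, Kl, Aqp1, Slc4a5, Otx2 and Prlr, 11 start sites in all, and the 250 bases before each start were searched on both strands for TAATCC, the core site of Otx family homeodomain proteins, and for TATAAA, the TATA box. Kcnj13 and Prlr are printed because they differed with the knock-in at a fixed level of Ttr, Slc4a5 because it followed Ttr most steeply, and Otx2 because it held the Otx letters. Capitals mark TATAAA or its reverse complement TTTATA in Kcnj13 and Slc4a5, and GGATTA, the reverse complement of TAATCC, in Otx2.
Kcnj13, chr1:87394730-87394979, minus strand: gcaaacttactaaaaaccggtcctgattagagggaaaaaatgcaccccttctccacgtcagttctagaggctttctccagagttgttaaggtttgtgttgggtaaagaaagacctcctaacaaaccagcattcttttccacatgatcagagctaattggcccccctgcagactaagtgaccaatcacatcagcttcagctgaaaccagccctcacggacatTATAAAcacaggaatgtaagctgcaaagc
Prlr, chr15:10176988-10177237, plus strand: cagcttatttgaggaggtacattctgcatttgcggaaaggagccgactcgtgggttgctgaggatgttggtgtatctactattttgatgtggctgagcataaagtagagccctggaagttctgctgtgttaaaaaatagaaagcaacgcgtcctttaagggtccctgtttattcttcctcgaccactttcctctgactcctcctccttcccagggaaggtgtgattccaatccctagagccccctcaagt
Slc4a5, chr6:83237125-83237374, plus strand: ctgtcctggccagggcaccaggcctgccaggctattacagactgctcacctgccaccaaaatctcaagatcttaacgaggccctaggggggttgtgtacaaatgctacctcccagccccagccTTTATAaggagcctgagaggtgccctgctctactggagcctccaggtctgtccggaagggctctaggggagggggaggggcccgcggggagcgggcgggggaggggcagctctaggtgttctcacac
Otx2, chr14:48665110-48665359, minus strand: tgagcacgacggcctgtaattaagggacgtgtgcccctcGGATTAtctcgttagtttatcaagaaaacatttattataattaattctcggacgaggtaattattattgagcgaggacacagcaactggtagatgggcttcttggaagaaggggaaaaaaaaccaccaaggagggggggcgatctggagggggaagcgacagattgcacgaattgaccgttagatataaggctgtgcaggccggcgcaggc

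The TATA letters of Kcnj13 began 29 bases before its start, and those of Slc4a5 began 127 bases before, on the reverse strand. TATAAA was found in 3 of the 11 member windows, the third at another start of Otx2, and in 12.4% of 32851 windows of this length over all genes. TAATCC was found in 1 of the 11, at the Otx2 start shown, 211 bases before it, and in 6.25% of all windows. The Prlr window shown, the first of its 3, held neither. These matches describe letters only.

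Ttr ranged over 177-fold between libraries, and every genotype held both high and low libraries. Its level in WT was 3724, 1733 and 36.3 CPM in libraries 1, 2 and 3. In Q175HD it was 4674, 297 and 59.9 CPM. SUMO-KO had 231, 2088 and 26.65 CPM, and Q175HD/SUMO-KO had 4721, 45.6 and 2863 CPM. The 4 genotypes thus overlapped widely, and Ttr reads made up from 0.00253% to 0.481% of a library. The within-genotype standard deviation of Ttr was 3.40 on the log2 scale against a median of 0.20 over all tested genes. It was the sixth widest of 17796, behind Xist and the Y-linked Ddx3y, Kdm5d, Uty and Eif2s3y, and 3 other choroid plexus genes, Tmem72, Mfrp and Kcne2, were among the first 10.

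**Figure D1:**
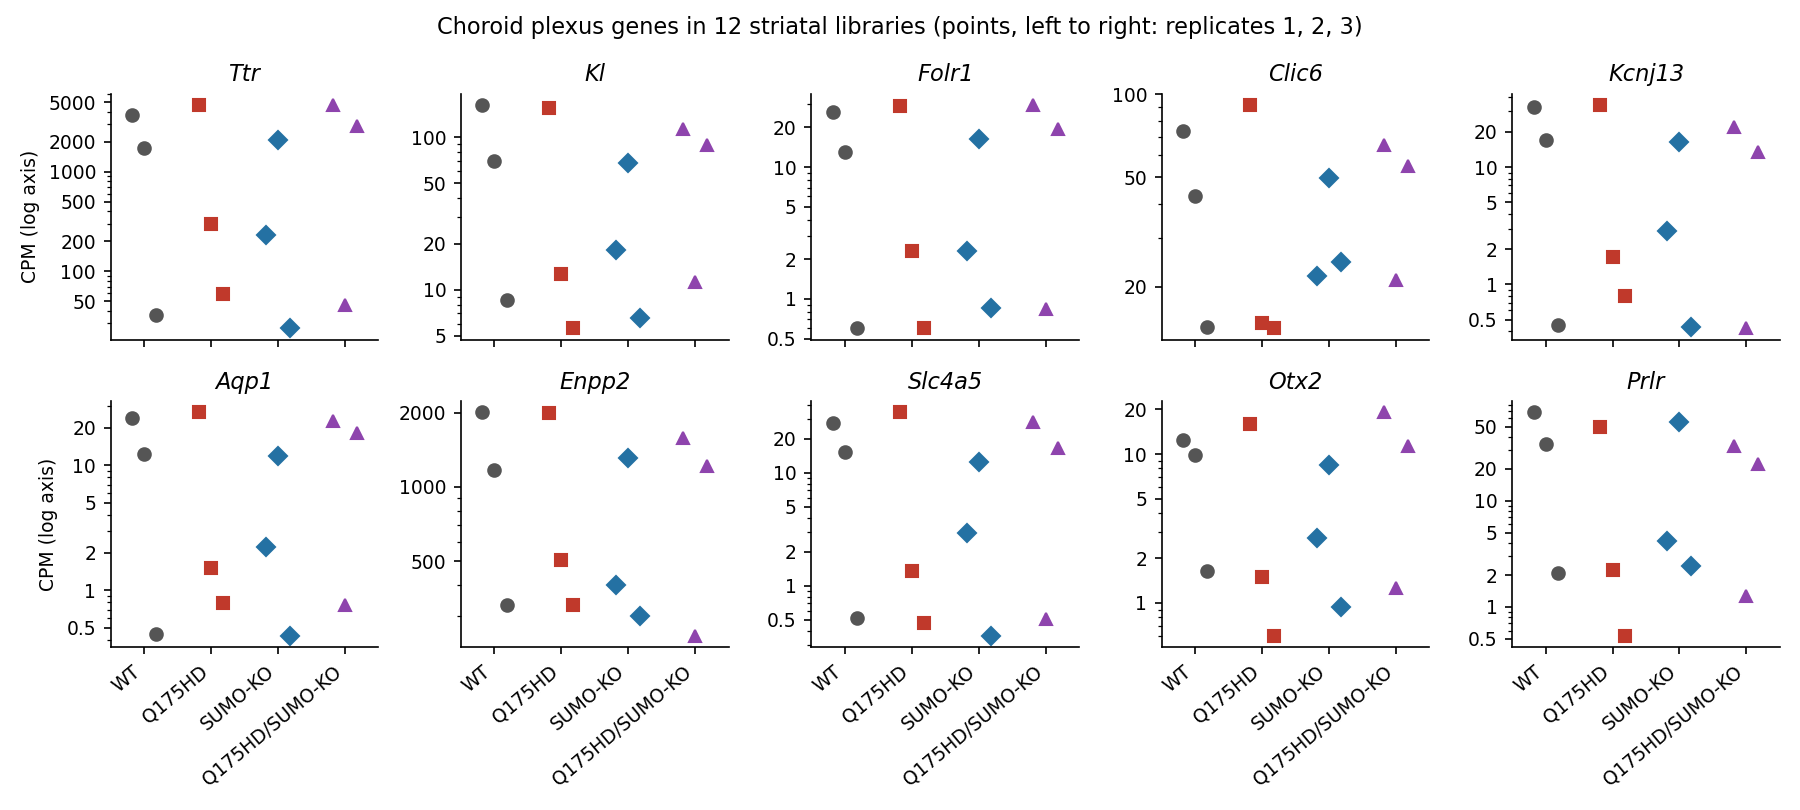
Level of each of the 10 choroid plexus genes in CPM (log axes that do not start at 0), by genotype, with 1 point per library and replicates 1, 2 and 3 from left to right. In every panel each genotype has at least 1 library among the 6 highest and at least 1 among the 6 lowest. For Clic6 the SUMO-KO points span only 21.8 to 49.6 CPM. The high libraries are WT 1, WT 2, Q175HD 1, SUMO-KO 2, Q175HD/SUMO-KO 1 and Q175HD/SUMO-KO 3.

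The receptors also varied, less widely than Ttr. Prlr was at 68.4, 34.7 and 2.09 CPM in WT, at 50.1, 2.25 and 0.532 CPM in Q175HD, at 4.21, 54.9 and 2.44 CPM in SUMO-KO and at 32.8, 1.26 and 22.1 CPM in Q175HD/SUMO-KO. Folr1 was at 26.2, 12.98 and 0.596 CPM in WT, at 29.1, 2.33 and 0.598 CPM in Q175HD, at 2.32, 16.4 and 0.860 CPM in SUMO-KO and at 29.75, 0.842 and 19.5 CPM in Q175HD/SUMO-KO. Both were high in the libraries in which Ttr was high, and the genotypes overlapped for both. The highest library stood 129-fold above the lowest for Prlr, 49.9-fold for Folr1 and 29.3-fold for Kl, whose levels ran from 5.58 to 163 CPM.

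Of the transport genes, Slc4a5, Kcnj13 and Aqp1 varied more than Folr1 in fold, and Clic6 far less. Kcnj13 was at 32.65, 17.1 and 0.447 CPM in WT, at 34.1, 1.73 and 0.797 CPM in Q175HD, at 2.84, 16.3 and 0.430 CPM in SUMO-KO and at 22.03, 0.421 and 13.6 CPM in Q175HD/SUMO-KO. Its lowest library held 5 reads, so the lower levels rest on few counts. Slc4a5 ranged from 0.358 to 34.4 CPM, 96.1-fold, and Aqp1 from 0.430 to 26.5 CPM, 61.6-fold, while Otx2 ranged from 0.598 to 19.1 CPM, 31.9-fold.

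Enpp2 and Clic6 kept a higher floor. Enpp2 was at 2011, 1175 and 333 CPM in WT, at 1998, 506 and 330.4 CPM in Q175HD, at 400.0, 1307 and 299.5 CPM in SUMO-KO and at 1582, 248 and 1219 CPM in Q175HD/SUMO-KO. Clic6 was at 73.5, 42.7 and 14.2 CPM in WT, at 91.7, 14.8 and 14.1 CPM in Q175HD, at 21.8, 49.6 and 24.5 CPM in SUMO-KO and at 65.2, 21.1 and 55.0 CPM in Q175HD/SUMO-KO. Their highest libraries stood 8.12-fold and 6.51-fold above their lowest, the smallest ranges of the 10. The 10 markers of myelinating oligodendrocytes summed to between 4574 and 9671 CPM over the libraries, and their part in the Enpp2 floor was not tested.

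The libraries fell into separate sets by Ttr. No library lay between 297 and 1733 CPM, a 5.84-fold gap, with 6 libraries on each side. The sets were cut on Ttr, so its own split was fixed in advance. The same 6 libraries held the 6 highest values of every other member. How many of all tested genes split in this way was not counted, so how unusual the split of the members is cannot be judged from it. Over the 12 libraries, as a description of libraries that share these sets, Pearson's r of log2 CPM with Ttr was 0.99 for Aqp1, Folr1, Kcnj13 and Slc4a5, 0.97 for Enpp2 and Kl, 0.96 for Otx2, 0.93 for Prlr and 0.89 for Clic6. The 8 other genes most like Ttr by this measure, with a mean of at least 50 reads, were Igfbp2, F5, Tmem72, Mfrp, Kcne2, Cldn2, Trpv4 and Sostdc1, with r from 0.97 to 0.99. Of these, 7 stood on a list of 28 further choroid plexus genes, and Mfrp stood on none.

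Because of the sets, relations were tested within each set of 6 libraries, over 18 relations, with two-sided exact permutation tests whose smallest p is 0.00139. In the 6 libraries with at least 1733 CPM of Ttr, Folr1 rose with Ttr in rank order, with r = 0.99 and Spearman's rho = 1.0 (exact p = 0.00139 and 0.00278, Benjamini-Hochberg adjusted p of r = 0.025), and r was 0.98 without the 2 libraries farthest from the Ttr median. None of the other 17 relations had an adjusted p under 0.05, but 7 of the 18 did with library totals in place of TMM scaling. Values of r among the high libraries ran from 0.13 for Prlr to 0.99 for Folr1, and among the low libraries from -0.18 for Clic6 to 0.94 for Aqp1. In all, 17 of 18 were positive, but 13 of 18 were when the 2 farthest libraries were left out, so several of the low-set relations rest on SUMO-KO 1 and Q175HD 2. Set against Ttr, the 6 high libraries held 6.22 to 7.84 Folr1 reads per 1000 Ttr reads, beside 4.79 to 7.10 for Aqp1, 5.79 to 8.80 for Slc4a5, 3.35 to 5.70 for Otx2 and 23.9 to 43.9 for Kl. Genotype means were not taken out within these sets, so these relations also hold any difference between genotypes.

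**Figure D2:**
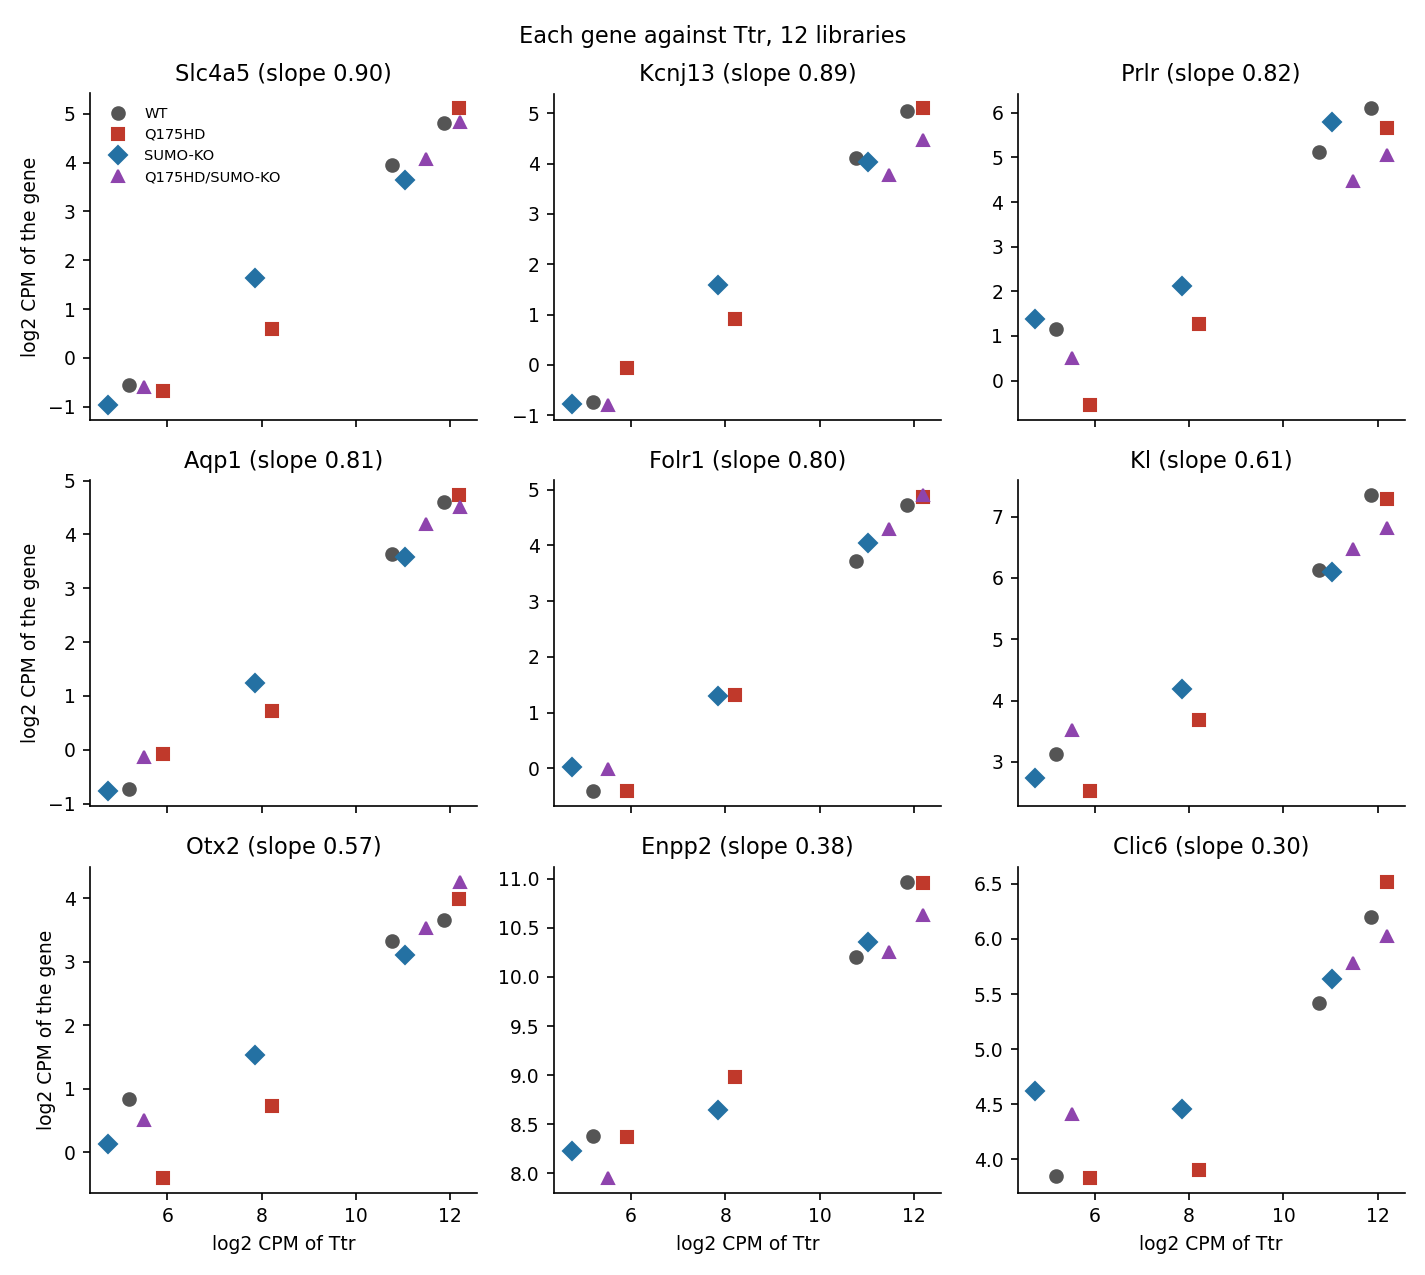
Log2 CPM of each of the other 9 genes against log2 CPM of Ttr, with 1 point per library, marked by genotype, ordered by slope. The points run from lower left to upper right in every panel, with 6 libraries at the upper right, and the slope falls from 0.90 for Slc4a5 to 0.30 for Clic6.

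A fit over all genes with the 4 genotype means and log2 Ttr as a further term gave the change of each gene per doubling of Ttr. This fit was added after the spread of Ttr had been seen. It spans both sets of libraries, so its p-values also hold the step between the sets. They do not show that a gene followed Ttr within a set, where 1 of 18 relations had passed. All 9 other members rose with Ttr (edgeR quasi-likelihood test, adjusted p from 6.32e-09 for Kcnj13 to 0.00845 for Clic6), where 1.03% of 17795 genes rose. The slope, in log2 units per log2 unit of Ttr, was 0.90 for Slc4a5 (SE 0.04), 0.89 for Kcnj13 (SE 0.03), 0.82 for Prlr (SE 0.06), 0.81 for Aqp1 (SE 0.03) and 0.80 for Folr1 (SE 0.03). It was 0.61 for Kl, 0.57 for Otx2, 0.38 for Enpp2 and 0.30 for Clic6. A slope near 1 means that a gene kept its ratio to Ttr, and a small one that its level moved less. Leaving out each library in turn, all 9 rose in 11 of 12 fits, and without WT 3 Clic6 was not called.

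Of the 28 further choroid plexus genes, 26 rose with Ttr and none fell, with slopes over the whole list from 0.06 to 1.01 and a median of 0.44. Among them were Tmem72 at 1.01, Kcne2, a potassium channel subunit, at 0.97, Cldn2, a tight junction protein, at 0.95, and Sostdc1, a secreted inhibitor of bone morphogenetic proteins, at 0.86. Car12, a carbonic anhydrase, with a slope of 0.19 (adjusted p = 0.0851), and Htr2c, the serotonin 2C receptor, with 0.06 (adjusted p = 0.366), were not called by edgeR. Without Q175HD 3 the count of the 28 that rose was 22, the fewest over the 12 fits that leave a library out, and the count over all genes ran from 118 without Q175HD 1 to 247 without SUMO-KO 3.

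Genes of the other lists were seldom called on Ttr. No gene was called among 10 striatal projection neuron, 10 cortical excitatory neuron or 10 myelinating oligodendrocyte genes. Nor was any of 7 thalamic, septal and midline neuron, 11 ependymal, 12 fibroblast or 5 blood genes, or Plvap of leaky capillaries. The median slope was 0.08 for the ependymal genes (from -0.02 to 0.16) and 0.09 for the fibroblast genes (from -0.03 to 0.19). Picked with their values in view, Hdc, Foxj1 and Lum rose at unadjusted p of 0.00126, 0.00158 and 0.00192 by edgeR, short of a call. Summed over the list, ependymal genes ran from 48.6 to 96.4 CPM over the libraries, while the members summed to between 331 and 7110 CPM. Of 10 endothelial genes 1 rose, the thyroxine transporter Slco1c1, with a slope of 0.13 (SE 0.02, adjusted p = 0.00303). Of all 184 genes that rose, 9 were members, 26 were on the further choroid plexus list, 1 was Slco1c1 and 148 were on no list. The 2 that fell, named after their values were seen, were Hap1, which encodes a huntingtin-associated protein, with a slope of -0.08 (SE 0.02, adjusted p = 0.0357), and Pnck, a kinase, with -0.06 (SE 0.01, adjusted p = 0.0400).

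**Figure D3:**
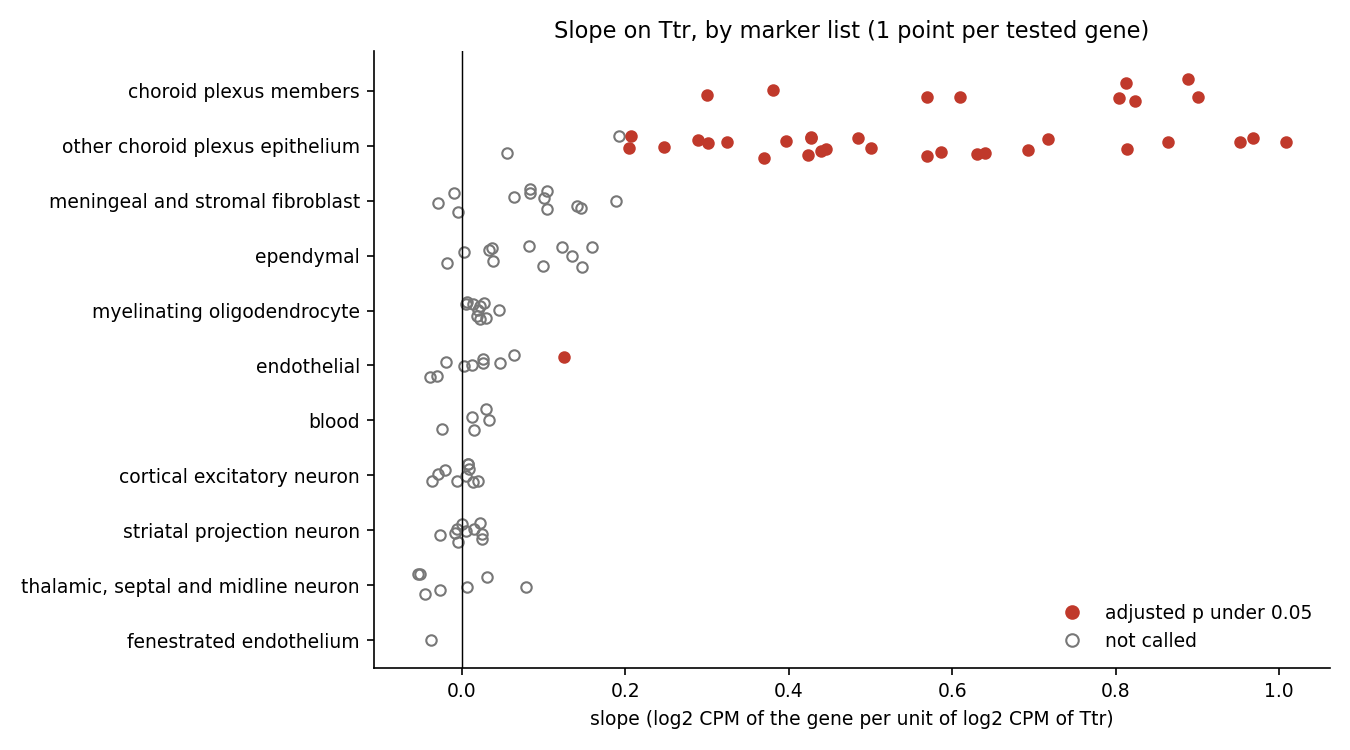
Slope on Ttr, in log2 CPM of the gene per log2 unit of Ttr, for every tested gene of each marker list, with 1 point per gene, filled where the edgeR adjusted p was under 0.05. The 9 choroid plexus members and 26 of 28 further choroid plexus genes are filled, against 1 filled point, Slco1c1, in the other 9 lists.

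No member was called between genotypes in any of 9 comparisons, with wide intervals. By edgeR at an adjusted p under 0.05, 0 of 10 were called in Q175HD against WT, where 3.93% of 17796 genes were, and 0 in Q175HD/SUMO-KO against SUMO-KO, where 7.81% were. The count was 0 in SUMO-KO against WT (0.045% of all genes), Q175HD/SUMO-KO against Q175HD (0.0337%), Q175HD/SUMO-KO against WT (8.44%) and Q175HD against SUMO-KO (8.96%). It was 0 for the knock-in effect averaged across SUMO-1 status (16.9% of all genes), for SUMO-1 loss averaged over Htt status (0.0787%) and for the interaction of the 2 changes (0% of all genes by edgeR, with 770 at an unadjusted p under 0.05 and 32 called by DESeq2). No member had an unadjusted p under 0.05 in any comparison, DESeq2 called 0 members in each, and in the authors' deposited tables the lowest adjusted p over 60 member values was 0.566.

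The errors of these differences were large. Ttr averaged 1831 ± 1846 CPM in WT, 1677 ± 2598 in Q175HD, 782 ± 1136 in SUMO-KO and 2543 ± 2354 in Q175HD/SUMO-KO (SD, n = 3 each), so the SD was as large as the mean or larger in 3 of 4 genotypes. Its log2 difference was -0.13 (SE 2.18) in Q175HD against WT, with a 95% interval from -5.12 to 4.87, and 1.70 (SE 2.24) in Q175HD/SUMO-KO against SUMO-KO, from -3.43 to 6.84. SUMO-KO against WT gave -1.23 (SE 2.21, from -6.30 to 3.85). The Ttr difference turned on single libraries. For Q175HD against WT it was 0.92 without WT 1, 0.37 without Q175HD 2, 0.44 without Q175HD 3, -0.70 without WT 3 and -3.36 without Q175HD 1. For Q175HD/SUMO-KO against SUMO-KO it was 4.32 without SUMO-KO 2 and 0.90 without Q175HD/SUMO-KO 1, and 3.70 with the replicate number as a block. For SUMO-KO against WT it was -0.18 without WT 1 and -3.84 without SUMO-KO 2. These Ttr intervals over all 12 libraries span more than a 10-fold change either way, so Ttr differences of that size were not detectable here. Intervals were narrower for Clic6 and Enpp2, in Q175HD against WT from 0.231-fold to 3.72-fold and from 0.162-fold to 4.01-fold.

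In Q175HD against WT, Q175HD/SUMO-KO against SUMO-KO and SUMO-KO against WT nearly all members had the sign of Ttr. Fewer did in Q175HD/SUMO-KO against WT, where Ttr was at 0.47 (SE 2.18) and 6 of 10 members were above 0. In Q175HD against WT all 10 log2 differences were below 0, with a median of -0.33, beside 0.00 over all tested genes, and SEs from 0.87 to 2.18. In Q175HD/SUMO-KO against SUMO-KO 9 of 10 were above 0, with a median of 1.31 beside 0.00, and Prlr, at -0.10 (SE 1.79), was the one below. SUMO-KO against WT gave 10 of 10 below 0, with a median of -1.14 beside 0.02. Single libraries turned these signs. In Q175HD against WT 9 of 10 were above 0 without WT 1 (median 0.54), 8 without Q175HD 2 and 9 without Q175HD 3, while without Q175HD 1 all 10 were below 0 with a median of -3.28. In SUMO-KO against WT 8 of 10 were below 0 without WT 1, with a median of -0.27, and the median was -3.19 without SUMO-KO 2. In Q175HD/SUMO-KO against SUMO-KO the median ran from 0.70 without Q175HD/SUMO-KO 1 to 2.80 without SUMO-KO 2. Since the genes vary together over the libraries, these counts are not independent signs, and the comparisons share libraries.

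With Ttr held fixed the errors of the genotype differences shrank, and Prlr and Kcnj13 were called lower for the averaged knock-in. All 9 members lay below 0 there. The Kcnj13 call depended on the index gene, as given below. For the knock-in averaged across SUMO-1 status, the SEs of the 9 genes ran from 0.13 to 0.28, against 0.62 to 1.55 for the 10 members without Ttr in the fit. The log2 difference at fixed Ttr was -1.33 for Prlr (SE 0.28, edgeR adjusted p = 0.00952) and -0.57 for Kcnj13 (SE 0.14, adjusted p = 0.0180). The other 7 were not called, with differences from -0.30 for Slc4a5 (SE 0.19, adjusted p = 0.294) to -0.11 for Aqp1 (SE 0.16). A count of 2 of 9 stands beside 16.4% of all genes called in the same fit, near that share, and is not a result about the set. In the same fit 1 of 9 was called in Q175HD/SUMO-KO against WT, where 7.91% of genes were: Kcnj13, at -0.88 (SE 0.19, adjusted p = 0.0159). None of the 9 was called by edgeR at fixed Ttr in Q175HD against WT (3.48% of genes called), Q175HD/SUMO-KO against SUMO-KO (7.03%), SUMO-KO against WT (0.00562%), Q175HD/SUMO-KO against Q175HD (0.0337%) or Q175HD against SUMO-KO (8.3%). The Prlr differences were -1.17 (SE 0.38, adjusted p = 0.132) for Q175HD against WT, -1.49 (SE 0.41, adjusted p = 0.0535) for Q175HD/SUMO-KO against SUMO-KO and -1.37 (SE 0.40, adjusted p = 0.0596) for Q175HD against SUMO-KO.

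**Figure D4:**
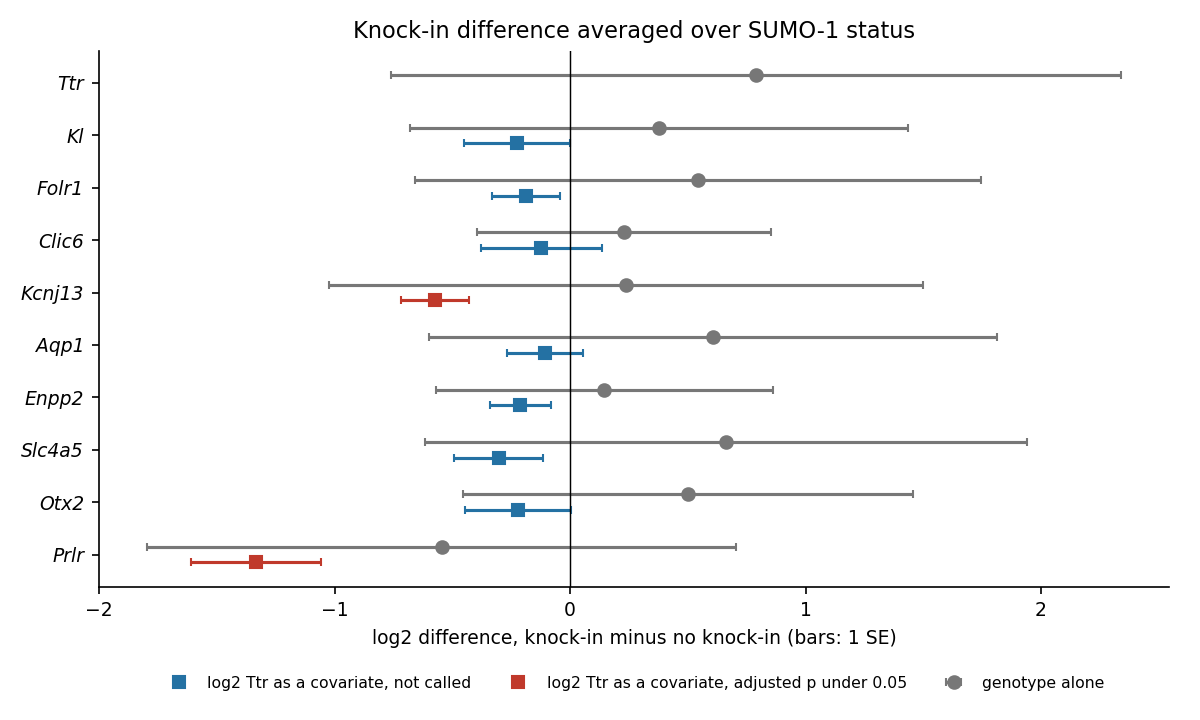
Log2 difference between the libraries with and without the knock-in, averaged across SUMO-1 status, with genotype alone in the fit (circles) and with log2 Ttr as a covariate (squares). Bars are 1 SE. With Ttr in the fit the bars shrink, and Prlr at -1.33 and Kcnj13 at -0.57 are the 2 called.

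The values behind this can be read as reads per 1000 Ttr reads. For Prlr these were 18.4, 20.0 and 57.5 in WT and 18.3, 26.3 and 91.4 in SUMO-KO, against 10.7, 7.60 and 8.88 in Q175HD and 6.95, 27.7 and 7.71 in Q175HD/SUMO-KO. All 6 libraries without the knock-in were at 18.3 or above and 5 of the 6 with it at 10.7 or below, the exception being Q175HD/SUMO-KO 2, with 15 Prlr reads and 541 Ttr reads. Few reads also lay behind 7.60 and 8.88 in Q175HD 2 and Q175HD 3, with 30 and 8 Prlr reads. WT 3, SUMO-KO 1 and SUMO-KO 3, at 57.5, 18.3 and 91.4, had 28, 40 and 34. For Kcnj13 the values were 8.77, 9.86 and 12.3 in WT, 12.3, 7.79 and 16.1 in SUMO-KO, 7.30, 5.82 and 13.3 in Q175HD and 4.67, 9.24 and 4.75 in Q175HD/SUMO-KO, and here the genotypes overlapped more.

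The Prlr difference was called with Folr1, Aqp1 or Slc4a5 in place of Ttr, at -1.18, -1.23 and -1.10, and lost its call without SUMO-KO 2, at -1.20 (adjusted p = 0.0622). With log2 Xist as a further covariate it was -1.27 (SE 0.33, adjusted p = 0.03305). Without WT 1 and without WT 2, the libraries high in cortical markers, it was -1.36 (adjusted p = 0.0289) and -1.37 (adjusted p = 0.0224). Kcnj13 was called with Aqp1 as the index (-0.44, adjusted p = 0.0222) and with Xist added to Ttr (-0.59, adjusted p = 0.04265), and not with Folr1 (-0.40, adjusted p = 0.111) or Slc4a5 (-0.28, adjusted p = 0.174) as the index. Its difference was nearly the same without WT 1 (-0.57, adjusted p = 0.0549), WT 2 (-0.55, adjusted p = 0.0520) or Q175HD/SUMO-KO 1 (-0.57, adjusted p = 0.0528), with the adjusted p just above the threshold, all by edgeR. The difference between the knock-in effects with and without SUMO-1 was not called for either gene, at -0.32 (SE 0.55) for Prlr and -0.36 (SE 0.29) for Kcnj13, both with an edgeR adjusted p of 0.999. Ttr itself, with Folr1, Aqp1 or Slc4a5 as the index, was at 0.29, 0.22 and 0.56 for the averaged knock-in. It was not called (edgeR adjusted p = 0.367, 0.546 and 0.128). The part of the index gene in the differences at fixed Ttr was not tested.

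**Figure D5:**
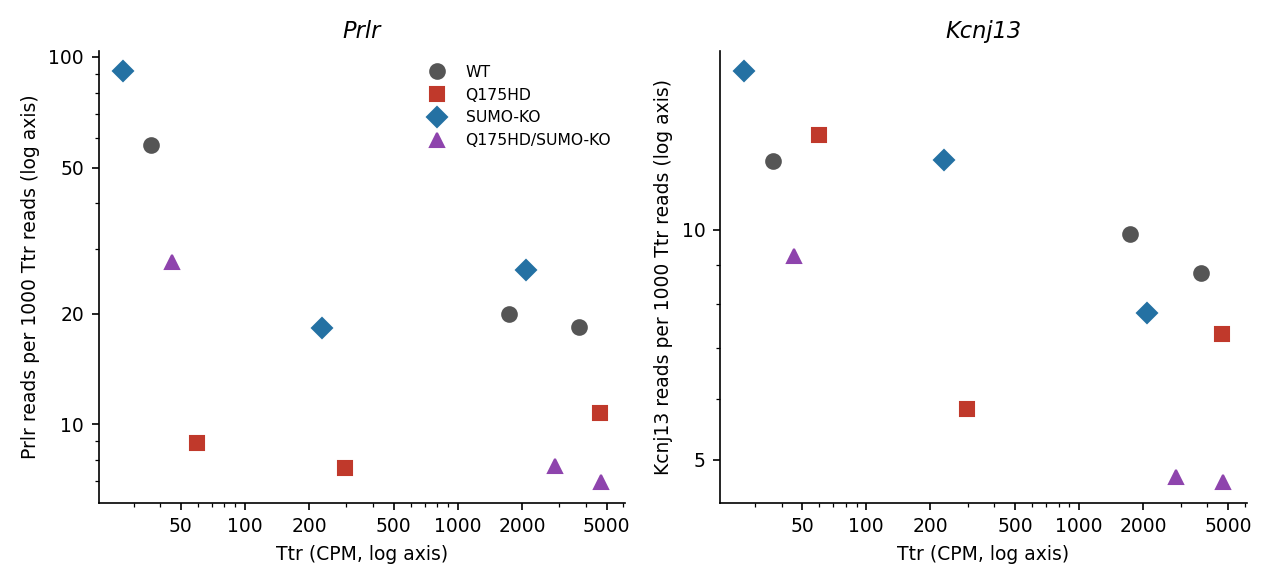
Reads of Prlr (left) and Kcnj13 (right) per 1000 Ttr reads against the level of Ttr in CPM, log axes, with 1 point per library marked by genotype. Q175HD and Q175HD/SUMO-KO points lie lowest for Prlr, with 1 exception at 27.7, while for Kcnj13 the genotypes overlap at low Ttr.

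Of the 28 further choroid plexus genes, 1 rose and none fell for the knock-in averaged across SUMO-1 status, a smaller share than the 16.9% of all genes called in that comparison. Htr2c, which neurons also express, was at 103, 70.9 and 71.5 CPM in WT and at 75.4, 95.05 and 81.95 CPM in SUMO-KO, against 197, 123 and 135 CPM in Q175HD and 205, 171 and 199 CPM in Q175HD/SUMO-KO. The libraries with the knock-in lay above all those without it. The log2 difference averaged over SUMO-1 status was 1.04 (SE 0.13, edgeR adjusted p = 0.000254), and 1.00 (SE 0.10, adjusted p = 5.88e-05) at fixed Ttr. Its level ranged 2.89-fold over the libraries, against 177-fold for Ttr.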

How the data were processed

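Per the labels, libraries were made from rRNA-depleted total RNA (miRNeasy Mini, NEBNext Ultra II directional). Tools listed in the submitters' processing notes are STAR 2.5.2a, Bowtie 1.1.2, cutadapt 2.10 and DESeq2, on mm10 and GRCm38. Not given in the sources used here are the tool that counted reads and the strand it used. The deposited raw counts are whole reads per Ensembl gene, without normalization, and the deposited TPM values are the authors' own, used for levels per length. The authors also deposited log2 fold changes for their own comparisons, set beside the fits here. The p-values taken from those deposited tables are adjusted ones. The table held 0 columns of other series.

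Counts were fitted with edgeR 4.0.16 in R 4.3.3, with 4 genotype means over all 12 libraries, TMM scaling, robust quasi-likelihood and genes kept by filterByExpr (minimum count 10, minimum total 15). A gene was called where its p, adjusted over all genes tested (Benjamini-Hochberg), was under 0.05. The SE is the log2 difference divided by the square root of F. CPM use TMM-scaled totals, and log2 CPM a prior count of 2. DESeq2 1.42.0 was an alternative. The fit was tested on simulated data. Correlations used Python with scipy 1.17.1. Gene positions are from GENCODE on GRCm38, and upstream sequences from RefSeq on GRCm38.p6.

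The members, the gene lists and the tests were chosen with earlier results of these data known. Outside the members, the genes named are the 8 most like Ttr, called members of the other lists and up to 3 abundant ones, and any further gene is marked as picked with its values in view. Replicates of a genotype differed beyond sampling noise (chi-square per degree of freedom 8.44 to 27.5). Fits with log2 Ttr, Xist or another index gene as a covariate, and those that leave a library out of them, were added after seeing the data.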

Additional observations from a re-analysis of the deposited data

How the results depend on the processing

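In each of the 9 comparisons 0 of 10 members were called under median-ratio size factors, library totals, no filter on low counts, DESeq2, a fit to the compared libraries alone (pairwise comparisons), and without each library in turn (0 to 0). With the replicate block 0 were called as well. The 18 correlations of deviations between same-numbered libraries ran from -0.23 to 0.57, and of the 6 pairs of genotypes only WT with Q175HD/SUMO-KO had all 3 over 0.1, where the replicate block gave 1693 genes in place of 1502. With log2 Ttr as a covariate, chosen after seeing the data, 1 member was called in Q175HD/SUMO-KO against WT and 2 for the averaged knock-in. Of 1671 alternative member differences 179 had the opposite sign, and 0 of the planned ones were called. Of the 18 within-set relations with Ttr, 1 passed with a prior count of 0.5 and 7 with library totals in place of TMM; leaving out a library was not run, since correlations were kept to at least 6 libraries and it leaves 5 in a set. The members that rose with Ttr numbered 8 to 9 with a library left out.

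Counts of all genes called moved more. SUMO-KO against WT had 8 by edgeR, 251 by DESeq2, 119 without a filter, 3 with library totals, 0 with the compared libraries alone, 1 with log2 Ttr, and from 0 to 1422 with a library left out, the highest without SUMO-KO 3. Without that library Q175HD against SUMO-KO had 3933 in place of 1594 and averaged SUMO-1 loss 1165. With a library left out, the counts ran from 210 to 954 for Q175HD against WT, 747 to 2395 for Q175HD/SUMO-KO against SUMO-KO, 674 to 2058 for Q175HD/SUMO-KO against WT and 1996 to 3841 for the averaged knock-in. SUMO-1 loss averaged over Htt status had 14, 203 by DESeq2 and 133 without a filter, and the interaction 0, 32 by DESeq2 and 2 without a filter. Q175HD/SUMO-KO against Q175HD had 6, 19 by DESeq2, 18 without a filter and 11 with the compared libraries alone, which gave 1297 in place of 699 for Q175HD against WT and 407 in place of 1389 for Q175HD/SUMO-KO against SUMO-KO. The cause of these moves was not tested. At 5 to 31 reads in the low libraries, the levels of Kcnj13, Folr1, Aqp1 and Slc4a5 carry a counting error that limits their ratios to Ttr. The same holds for Prlr, at 8 to 40 reads there, and for Otx2, at 9 to 26.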
